A study of Mus musculus with 2 samples.

Results

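The type I interferon response genes are the genes that cells switch on after interferon alpha or beta binds its receptor. They were chosen by symbol: 40 were listed, 38 of them were found among the 32285 genes measured, and Mx1 and Mx2 were not analysed here. The cells were bone marrow LSK cells, which lack lineage markers and carry Sca-1 and c-Kit. They comprise the blood-forming stem cells (HSCs) and the multipotent progenitors (MPPs), and were profiled for RNA and surface antibody tags in the same cell (CITE-seq). One group of mice was given deferoxamine, a chelator of iron, at 50 mg/kg and the other its vehicle, HBSS. Both were treated daily for 7 days in every 4 weeks over 13 months, from about 6 months of age, so both groups were aged. Strain and number of mice were not given in the sources used here. Each group was 1 hashtagged pool, and both pools were loaded together, so no difference between treatments could be tested across animals and every interval on it covers counting error only.

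Interferon alpha and beta signal through the receptor chains IFNAR1 and IFNAR2 and the kinases JAK1 and TYK2 to the complex ISGF3. ISGF3, which contains STAT2 and IRF9, binds interferon-stimulated response elements in the promoters of its target genes. Many targets block viral replication, others sense viral nucleic acid or damp the signal. Interferon is known to drive dormant HSCs into division, and stem cells are known to keep some of these genes on without infection.

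The kept cells were 3969 of the vehicle pool with 63240358 gene UMIs and 3998 of the deferoxamine pool with 66508812, at medians of 13705 and 14456 UMIs per cell. The hashtag of the own pool was the stronger in 4025 of 4026 vehicle barcodes and 4037 of 4037 deferoxamine barcodes, and 0 barcodes were shared. The pools mixed male and female cells in unlike proportions: of the cells with a sex call, 42.1% of vehicle and 26.1% of deferoxamine cells had Xist.

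The promoters of several members show the response element itself. In RefSeq windows of GRCm38.p6, from 250 bases before to 50 after the start site, a pair of GAAA runs parted by any 2 bases, the core of the element, was searched on both strands, overlaps allowed. It occurred in 14 of the 29 members that have a window there (48.3%) and in 3.99% of all 27025 genes with one. A match is a run of letters and not a site shown to be bound. The 6 stretches below lie upstream of their genes, run 5′ to 3′ on the gene's strand, and carry the pair or its reverse complement in capitals. They are shown as examples of the match, and Isg15, Ifit1, Rsad2 and Bst2 are read in single cells further on. Isg15 lies at chr4:156200855-156200916 on the minus strand, Ifit1 at chr19:34640765-34640833 on the plus strand, Rsad2 at chr12:26456543-26456592, Oas3 at chr5:120777705-120777754, Bst2 at chr8:71537567-71537622 and Trim30a at chr7:104465200-104465249, the last 4 on the minus strand.
Isg15: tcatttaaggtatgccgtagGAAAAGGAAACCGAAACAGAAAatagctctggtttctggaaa
Ifit1: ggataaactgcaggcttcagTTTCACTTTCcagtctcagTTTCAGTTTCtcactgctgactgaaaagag
Rsad2: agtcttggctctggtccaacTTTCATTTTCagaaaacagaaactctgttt
Oas3: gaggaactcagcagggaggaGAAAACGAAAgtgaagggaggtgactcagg
Bst2: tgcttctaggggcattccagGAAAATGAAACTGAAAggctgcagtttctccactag
Trim30a: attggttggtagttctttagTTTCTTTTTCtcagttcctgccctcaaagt
Isg15 holds 3 overlapping matches, Ifit1 and Bst2 hold 2 each, and Rsad2, Oas3 and Trim30a hold 1. The windows of the paralogs Ifit3 and Ifit3b were identical at 258 of 260 aligned bases, beside 80 gap positions. The transcripts of these close paralogs were not compared, and how reads that fit both were counted is not given in the sources used here, so their counts are uncertain.

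Summed over the 38 members, the vehicle pool held 92345 UMIs, 1460 CPM (UMIs scaled to library size), and the deferoxamine pool 98908, 1487 CPM. Bst2, which encodes tetherin, a membrane protein that holds back budding virus, had 10057 and 10836 UMIs. Ifi203, of the HIN200 family of DNA-binding proteins, had 8538 and 9337, Lgals3bp, a secreted galectin-binding glycoprotein, 8227 and 8877, and Ifi27 7185 and 7873. At the other end stood Ifit3 with 58 and 106 UMIs, Ifi204 with 44 and 33 and Ifit3b with 36 and 43. For these scarce genes a handful of cells carried most of the signal: the 10 richest cells held 55.2% of the Ifit3 UMIs in the vehicle pool and 65.1% in the deferoxamine pool. In Ifit1, whose product binds foreign RNA, they held 23.0% and 20.2%, and in Bst2 2.58% and 2.22%.

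Cells were assigned to 5 gates by the CD135, CD48 and CD150 tags: HSC (CD150 alone), MPP1 (none of the 3), MPP2 (CD48 and CD150), MPP3 (CD48 alone) and MPP4 (CD135 without CD150). A gate is a range of tag signal and not a sharp type, since 32.8% of vehicle and 33.1% of deferoxamine cells lay within 0.25 of a threshold. The members together stood highest in the HSC gate, at 1571 CPM (95% Poisson interval 1552 to 1590) in the vehicle and 1569 (1552 to 1587) in the deferoxamine pool. MPP1 followed at 1559 and 1540 CPM, intervals that overlap those of the HSC gate. MPP4 had 1486 and 1534, MPP3 1225 and 1328, and MPP2 1046 and 1077. MPP2 and MPP3 were thus the lowest gates in both pools. Per cell the order differed, because cells of the gates differ in total RNA. MPP4 cells held the most member UMIs each, 24.9 and 27.7, and MPP3 cells held 24.1 and 26.1. MPP2 cells, with medians of 20534 and 21884 UMIs, held 24.1 and 24.8. HSC-gate cells, with medians of 12687 and 13304, held 22.3 and 23.2, and MPP1 cells the fewest, 20.3 and 20.8.

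Each MPP gate was tested against the HSC gate on the 10 sums of UMIs (edgeR's quasi-likelihood test with pool as a block and Benjamini-Hochberg adjustment over 14271 genes, called at an adjusted p under 0.05). The 2 pools stand in for replicates although their treatment differed. These p-values thus rest only on how far the gate differences disagree between 2 pools of 1 loading. Of the 36 members tested, 23 were higher in the HSC gate than in MPP2 and 0 lower, where 20.6% of all genes were higher and 19.8% lower. The count of lower members was 0 at an unadjusted p under 0.05 too, and 0 with DESeq2. Against MPP3, 21 were higher in the HSC gate and 4 lower (all genes 30.6% and 30.2%). Against MPP4, 13 were higher and 6 lower (all genes 31.2% and 30.8%). Against MPP1, 8 were higher and 4 lower (all genes 14.7% and 12.3%). The median log2 ratio of the members was -0.54 for MPP2 over HSC, where that of all genes was -0.04, and -0.27 for MPP3 (all genes -0.02), while for MPP4 and MPP1 it was -0.01 and -0.03. The share of Xist cells was 62.8% and 48.2% in MPP2 against 35.8% and 27.0% in the HSC gate. With pool and sex as blocks, 25 members were higher in the HSC gate than in MPP2.

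**Figure D1:**
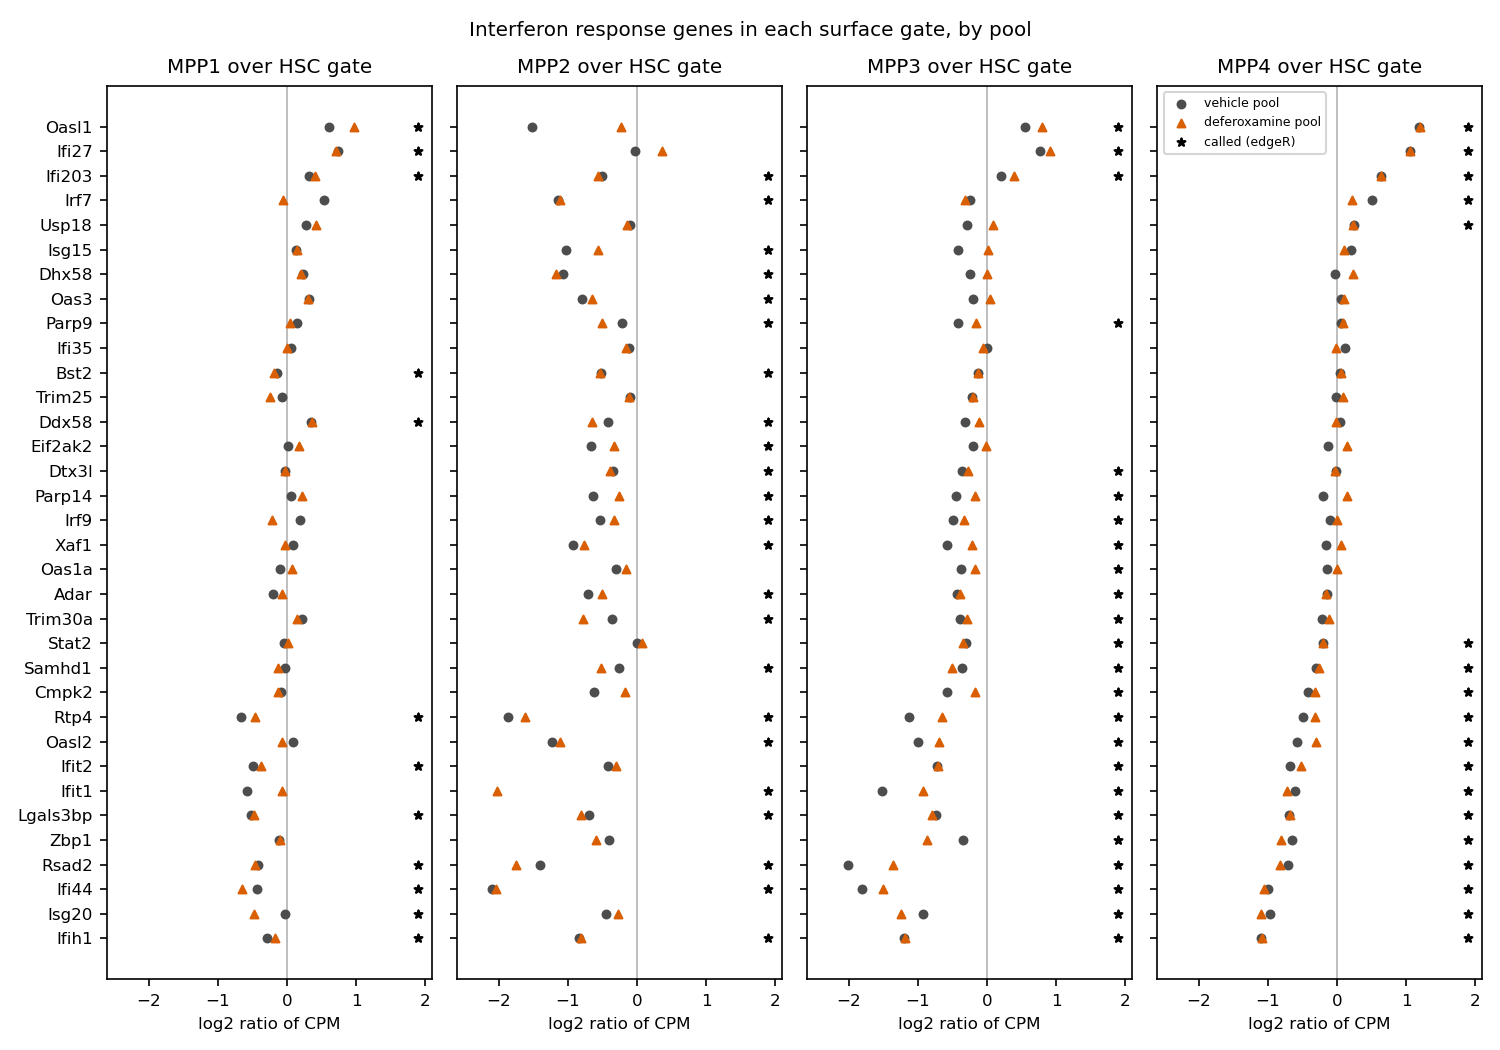
Log2 ratio of CPM between each MPP gate and the HSC gate for the 34 members with at least 500 UMIs, 1 point per pool, with a star where edgeR called the gene. MPP2 and MPP3 lie mostly left of 0, and the MPP4 points spread from Isg20 at -1.10 to Oasl1 at 1.20, both in the deferoxamine pool. The vehicle point of Ifit1 in MPP2 is not drawn because no UMI was counted there.

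Among the sensors, Ifih1 encodes MDA5, which recognises long double-stranded RNA. It had 63.1 and 64.2 CPM in the HSC gate of the vehicle and deferoxamine pools, 51.9 and 56.8 in MPP1, 35.4 and 36.5 in MPP2, 27.4 and 28.2 in MPP3 and 29.6 and 30.3 in MPP4. Every MPP value lay below both HSC values, and the 2 pools gave the same order of gates. Ifih1 fell by 1.05 on the log2 scale from HSC to MPP4 (SE 0.06, edgeR adjusted p = 4.9e-10). Ddx58, which encodes the RNA sensor RIG-I, behaved otherwise: it had 40.6 and 40.1 CPM in the HSC gate, 51.7 and 51.6 in MPP1 and 41.9 and 39.6 in MPP4. Ddx58 was higher in MPP1 (log2 0.32, SE 0.08, edgeR adjusted p = 0.0050) and was not called in MPP4. Zbp1, a sensor of Z-form nucleic acid, had 13.2 and 13.1 CPM in the HSC gate and 8.39 and 7.45 in MPP4 (log2 -0.70, SE 0.12, edgeR adjusted p = 1.6e-04). Dhx58, a regulator of both RNA sensors, was called lower in MPP2 alone of the 4 gates, and so was Eif2ak2, the kinase PKR, whose call was lost without cells near a threshold (log2 -0.43).

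Of the transcription factors, Irf7, which amplifies interferon production, had 20.9 and 26.4 CPM in the HSC gate and 29.5 and 30.6 in MPP4. Its MPP4 values were the higher in both pools (log2 0.38, SE 0.09, edgeR adjusted p = 0.0018), and in MPP2 it had 9.44 and 12.2. Of Stat2 and Irf9, both parts of ISGF3, Stat2 had 22.7 and 21.2 CPM in the HSC gate and 18.3 and 16.6 in MPP3 (log2 -0.29, SE 0.08, edgeR adjusted p = 0.0059). Irf9 was called lower in MPP2 and MPP3. Isg15, a ubiquitin-like modifier, had 29.9 and 33.3 CPM in the HSC gate and 14.6 and 22.6 in MPP2. Isg15 was called lower in MPP2 alone (log2 -0.76, SE 0.18, edgeR adjusted p = 0.0040). Usp18 removes ISG15 from proteins and blocks the receptor, and it was higher in MPP4 (log2 0.28, SE 0.11, edgeR adjusted p = 0.034). The Usp18 call was lost with DESeq2 and without the cells richest in member UMIs, where its log2 ratio was 0.096. The Isg15 call was lost without cells near a threshold (log2 -0.67), where Isg15 was called lower in MPP3 as well (log2 -0.43). Stat2 in MPP3 and Irf9 in MPP2 were not called by DESeq2. Trim25, a ubiquitin ligase that acts on RIG-I, was called in no gate, though it was called lower in MPP1 without cells near a threshold (log2 -0.30) and in MPP3 with no filter on genes or on cells (log2 -0.17 in each).

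Among the effectors and members of other roles, several were highest in the HSC gate. Ifi44, an interferon-induced cytoplasmic protein, had 24.1 and 25.02 CPM in the HSC gate, 17.8 and 15.9 in MPP1, 5.66 and 6.09 in MPP2, 6.88 and 8.82 in MPP3 and 12.1 and 12.0 in MPP4. The HSC gate was the highest of the 5 in both pools, and Ifi44 fell by 1.59 on the log2 scale to MPP3 (SE 0.12, edgeR adjusted p = 1.5e-08). Rsad2, or viperin, which makes a chain-terminating nucleotide, had 17.5 and 17.6 CPM in the HSC gate and 4.35 and 6.91 in MPP3 (log2 -1.57, SE 0.16, edgeR adjusted p = 4.2e-07). Rsad2 lies beside Cmpk2, a nucleotide kinase, on chromosome 12, and Cmpk2 was called lower in MPP3 and MPP4 by edgeR and in neither by DESeq2. Isg20, an RNA exonuclease, had 46.5 and 46.9 CPM in the HSC gate and 23.7 and 21.9 in MPP4 (log2 -1.01, SE 0.09, edgeR adjusted p = 8.4e-08). Lgals3bp had 177.8 and 180.9 CPM in the HSC gate and between 103.0 and 129.9 in the MPP gates, where it was called lower in each of the 4. Rtp4, which was called in each of the 4 as well, had 81.3 and 80.3 CPM in the HSC gate and 22.2 and 26.1 in MPP2.

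A smaller group ran the other way. Ifi27, an interferon-induced membrane protein, had 69.9 and 72.8 CPM in the HSC gate, 116.7 and 118.8 in MPP1 and 145.5 and 150.8 in MPP4. The MPP4 values lay above those of every other gate, and Ifi27 rose by 1.09 on the log2 scale (SE 0.07, edgeR adjusted p = 1.9e-09). Ifi203 rose from 107.4 and 110.2 CPM to 166.7 and 171.7 (log2 0.67, SE 0.05, edgeR adjusted p = 3.5e-08). Oasl1, an OAS-like protein that restrains translation of Irf7, had 4.06 and 3.56 CPM in the HSC gate and 9.30 and 8.18 in MPP4 (log2 1.23, SE 0.16, edgeR adjusted p = 5.8e-06). Its neighbour Oasl2 went the opposite way, from 55.2 and 51.8 CPM to 37.1 and 42.0 (log2 -0.40, SE 0.08, edgeR adjusted p = 7.0e-04). Of the OAS enzymes, which make the activator of RNase L, Oas2 was higher in MPP4 and Oas3 was not called there.

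Over the 34 members with at least 500 UMIs, the HSC gate held the highest CPM in both pools for 13, MPP1 for 6 (among them Ddx58, Oas3 and Usp18) and MPP4 for 4 (Bst2, Ifi203, Ifi27 and Oasl1). This order ranks bare CPM, so close values count too: Dtx3l had 39.6 CPM in the HSC gate and 39.2 in MPP4 of the vehicle pool. Against the HSC gate Ddx58 was called in MPP1, and Oas3, Usp18, Eif2ak2, Parp14 and Trim30a were not. Bst2 was not called in MPP4 (edgeR adjusted p = 0.11). MPP2 was the lowest gate in both pools for 17. Ifit1 had 15.6 and 14.1 CPM in the HSC gate and 0 and 3.48 in MPP2, where the vehicle pool had 92 cells.

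The rest of the pathway was read from 37 other genes of interferon signalling. No UMI was counted for Ifnb1, Ifna1, Ifna2, Ifna4, Ifne or Ifng in either pool, which allows a level of up to 0.0474 CPM in the vehicle and 0.0451 in the deferoxamine pool. Ifnz, an interferon zeta gene, had 24 and 15 UMIs. Of the 28 genes tested, 13 were higher in the HSC gate than in MPP3 and 9 lower (46.4% and 32.1%, all genes 30.6% and 30.2%). Against MPP4, 11 were higher and 10 lower (39.3% and 35.7%, all genes 31.2% and 30.8%), against MPP2, 11 and 4 (39.3% and 14.3%, all genes 20.6% and 19.8%), and against MPP1, 3 and 5 (10.7% and 17.9%, all genes 14.7% and 12.3%). Uba7, the enzyme that activates ISG15, was lower in MPP4 than in the HSC gate, by -2.17 on the log2 scale (SE 0.05, edgeR adjusted p = 5.7e-14). The receptor chain Ifnar2 ran the other way at 0.96 (SE 0.05, edgeR adjusted p = 4.9e-10), and so did Irf8 at 4.70 (SE 0.23, edgeR adjusted p = 1.2e-10), a factor of lymphoid and myeloid progenitors. Socs1 and Socs3, which shut down JAK signalling, were called higher in the HSC gate than in each of the 4 others.

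Between treatments the members differed little. A gene was counted as apart when its log2 ratio of CPM was at least 0.32 in size and the counting interval left out 0, among genes with at least 50 UMIs. In all kept cells 1 of 38 members was higher in the deferoxamine pool and 0 lower, where 1.85% of all genes were higher and 2.19% lower. That member was Ifit3, at 0.917 CPM in the vehicle and 1.59 in the deferoxamine pool (log2 0.80, interval 0.32 to 1.29). Without the cells richest in member UMIs its log2 ratio was 0.30, so a few cells set that value. Of the members, 22 lay above 0 and 16 below, and their median log2 ratio was 0.03, against -0.0015 for all genes. Of the 28 pathway genes with at least 50 UMIs, 2 were apart by the same rule in all kept cells. Socs3 was higher in the deferoxamine pool, at 12.4 CPM in the vehicle and 16.9 in the deferoxamine pool (log2 0.45, interval 0.31 to 0.58). Tlr3 was lower, at 1.68 and 1.11 CPM (log2 -0.59, interval -1.04 to -0.15). Within the HSC gate 1 of 35 members was apart in either direction (all genes 3.63%): Irf7, at 20.9 and 26.4 CPM (log2 0.34, interval 0.14 to 0.54). The summed level in the HSC gate gave a log2 ratio of -0.0017 (interval -0.03 to 0.02), and in MPP3 it gave 0.12 (0.08 to 0.15).

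The sexes of the cells gave unlike values. In cells with Xist, 1417 and 897 of them, 8 of 35 members were higher in the deferoxamine pool and 0 lower (all genes 3.98% and 2.42%). The 8 were Ifi44, Ifit1, Ifit2, Isg15, Oas1a, Oas3, Rtp4 and Xaf1. Ifit2, which binds viral RNA, gave a log2 ratio of 0.53 (interval 0.27 to 0.78), Isg15 of 0.38 (0.22 to 0.54) and Rtp4 of 0.36 (0.24 to 0.48). In cells with Y-linked transcripts (Y cells), 1952 and 2542, 0 of 37 members were higher and 1, Ifi204, was lower (all genes 1.82% and 2.38%). There Ifit2 gave 0.03 (-0.15 to 0.22), Isg15 0.08 (-0.04 to 0.20) and Rtp4 0.03 (-0.06 to 0.11). The median of the members was 0.13 in Xist cells and -0.06 in Y cells, where that of all genes was 0.0002 and -0.01. With the 5 gates given equal weights in both pools, the members gave 0.13 and -0.02 and all genes -0.0024 and -0.0084. The value of the members in Y cells was then near that of all genes. The difference between the sexes was not tested, since each sex of a pool may come from few mice. Within Xist cells the summed level gave 0.11 (0.06 to 0.15) in the HSC gate and 0.17 (0.11 to 0.23) in MPP3, but -0.11 (-0.18 to -0.04) in MPP1. Within Y cells it gave 0.0024 (-0.03 to 0.03) in the HSC gate, 0.08 (0.03 to 0.13) in MPP3 and 0.06 (0.01 to 0.11) in MPP1. Over all gates the summed level gave 0.0995 (0.08 to 0.12) in Xist cells and 0.0059 (-0.01 to 0.02) in Y cells, so the opposite signs are those of the median and not of the sum.

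**Figure D2:**
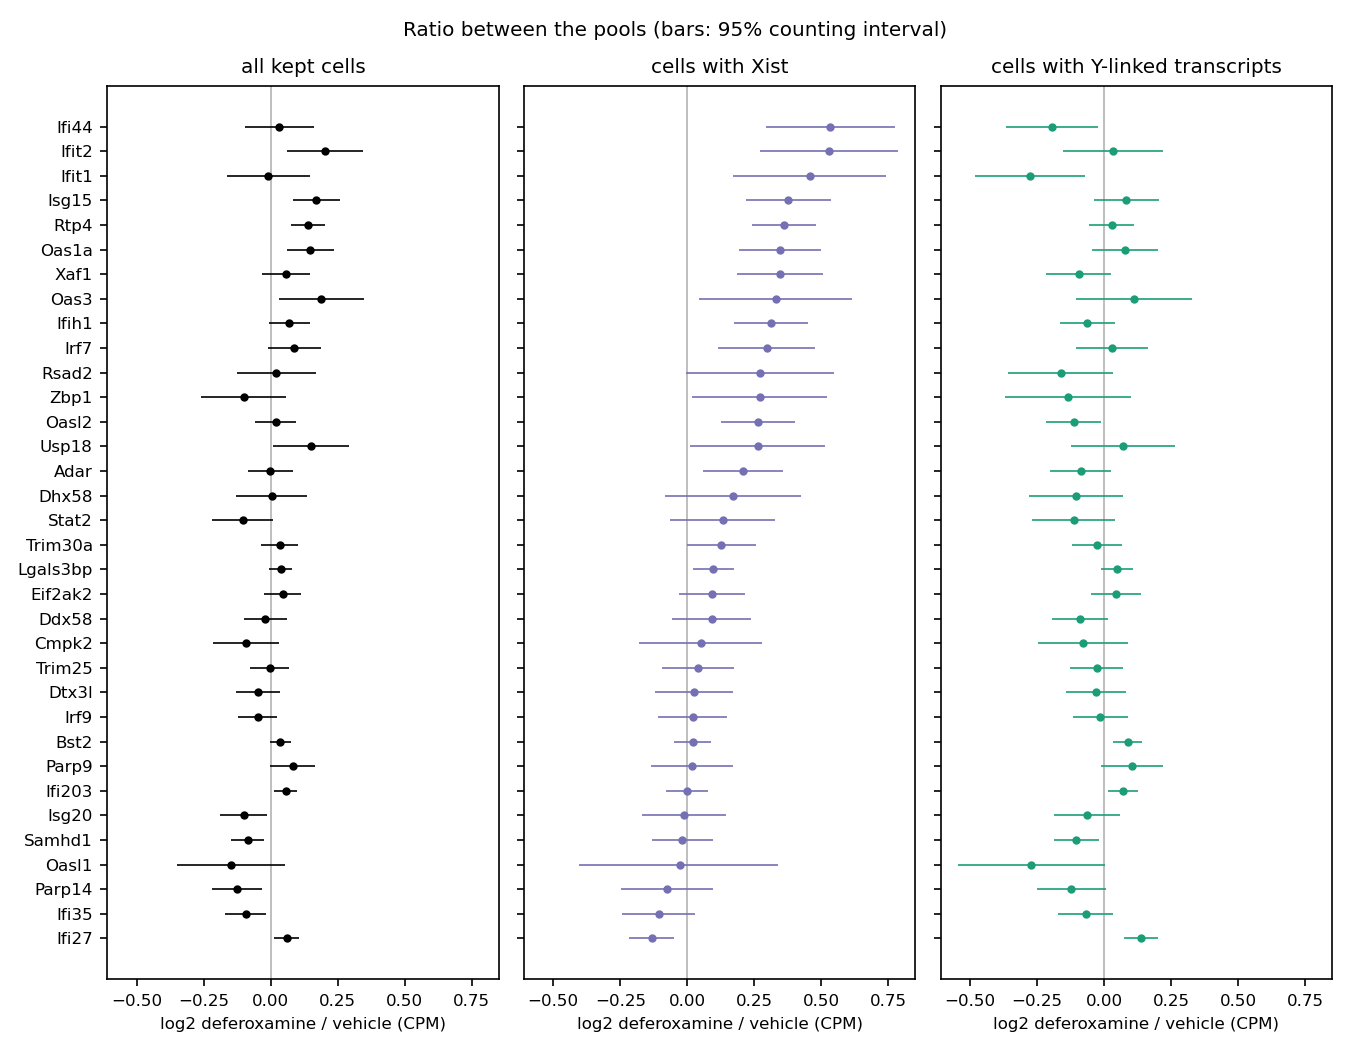
Log2 ratio of CPM, deferoxamine over vehicle, for the 34 members with at least 500 UMIs in all kept cells, in Xist cells and in Y cells; bars are 95% counting intervals. Ifi44 stands at 0.53 in Xist cells and at -0.19 in Y cells.

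The members were spread unevenly over cells. Depth was made equal by drawing 5000 UMIs from every cell, and 159 vehicle and 138 deferoxamine cells below that depth were left out. On this scale a cell held 7.79 member UMIs on average in the vehicle and 7.83 in the deferoxamine pool, with medians of 7.00 in both and highest values of 107 and 83. The variance of this sum was 3.25 and 3.10 times the sum of the single genes' variances, a ratio that is 1 when genes vary independently. It lay between 2.89 and 3.596 in each gate except MPP2, where it was 1.29 and 2.01. Gene by gene, the median ratio of variance to mean was 1.17 and 1.16 for the members and 1.04 and 1.04 for all genes of at least 200 thinned UMIs.

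To see whether members rise together in the same cells, the 38 were parted by alphabetical place into 19 that choose cells and 19 that are read in them. The 1% of cells richest in chooser genes, with 14 or more chooser UMIs, numbered 65. The class is a range and not a type: 11 cells stood at 14 UMIs and 21 at 13. In the vehicle pool 32 of 3810 cells belonged to it (0.840%, Clopper-Pearson 95% interval 0.575 to 1.18%) and in the deferoxamine pool 33 of 3860 (0.855%, 0.589 to 1.20%). On unthinned counts the shares were 0.735% and 1.19%, 28 and 46 cells, where a deeper cell reaches the limit more easily. Of these cells, 14 and 20 were rich on thinned counts too, so membership depends on the scale. The 65 cells rich on thinned counts had a median of 11545 UMIs before thinning, against 14379 in the others. The reader genes summed to 21.8 UMIs per rich cell (SD 15.03 over cells) against 4.54 in the others of the vehicle pool, and to 21.6 (SD 11.9) against 4.58 in the deferoxamine pool. That is 4.81-fold (counting interval 4.46 to 5.19) and 4.71-fold (4.37 to 5.08). In each pool all rich cells, 32 and 33, lay above the median of the other cells, 4.00. Unthinned, the reader genes stood at 4729 CPM in rich and 859.2 in other cells of the vehicle pool, and at 4662 and 871.9 in the deferoxamine pool. Cells of 1 pool are no replicates, so no test was made.

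**Figure D3:**
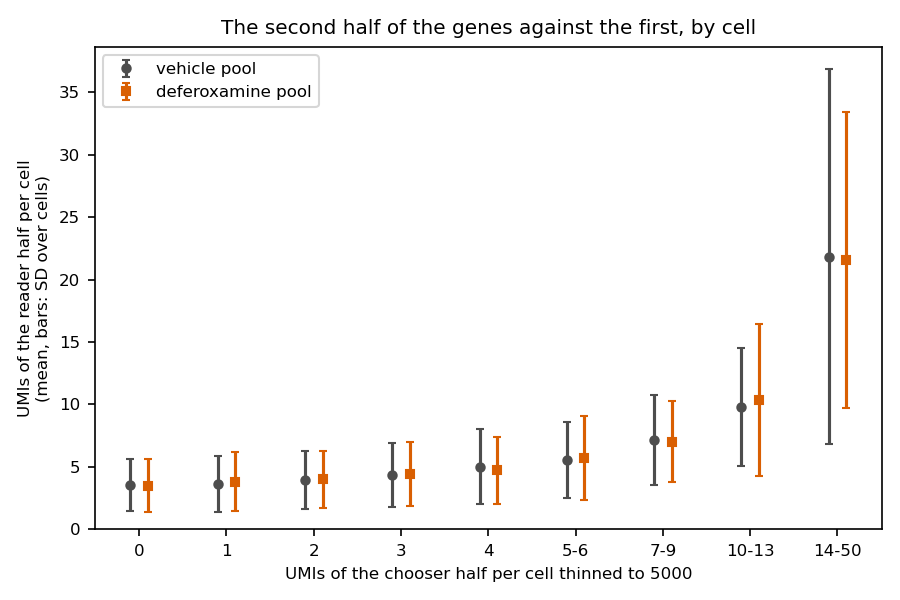
Mean UMIs of the 19 reader genes per cell (bars, SD over cells) against the UMIs of the 19 chooser genes in the same cell, each cell thinned to 5000 UMIs, by pool. The reader mean climbs from 3.53 and 3.47 in cells with 0 chooser UMIs to 9.76 and 10.4 at 10 to 13 and 21.8 and 21.6 at 14 and above.

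The reader genes did not rise alike. Isg15 had 2.84 UMIs per rich cell and 0.135 per other cell in the vehicle pool, and 3.46 and 0.150 in the deferoxamine pool, folds of 21.1 and 23.0. Ifit1 stood 40.0-fold (29.8 to 53.0) and 38.1-fold (28.2 to 50.8) higher. Rsad2 followed at 19.8-fold and 15.1-fold, Oasl1 at 23.8-fold and 19.7-fold and Irf7 at 11.5-fold and 15.4-fold. Bst2, abundant in all cells, rose 3.34-fold and 3.64-fold, and Lgals3bp 2.28-fold and 2.43-fold. Isg15 and Bst2 both hold the element, as printed above, with folds of 21.1 and 3.34 in the vehicle pool. The interval lay above 1 in both pools for 15 of the 19, and not for Dtx3l, Ifi27, Oas2 and Samhd1. Ifi27, one of the 4 members with at least 500 UMIs whose highest gate was MPP4 in both pools, gave 1.18 (0.74 to 1.80) and 1.74 (1.20 to 2.44).

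**Figure D4:**
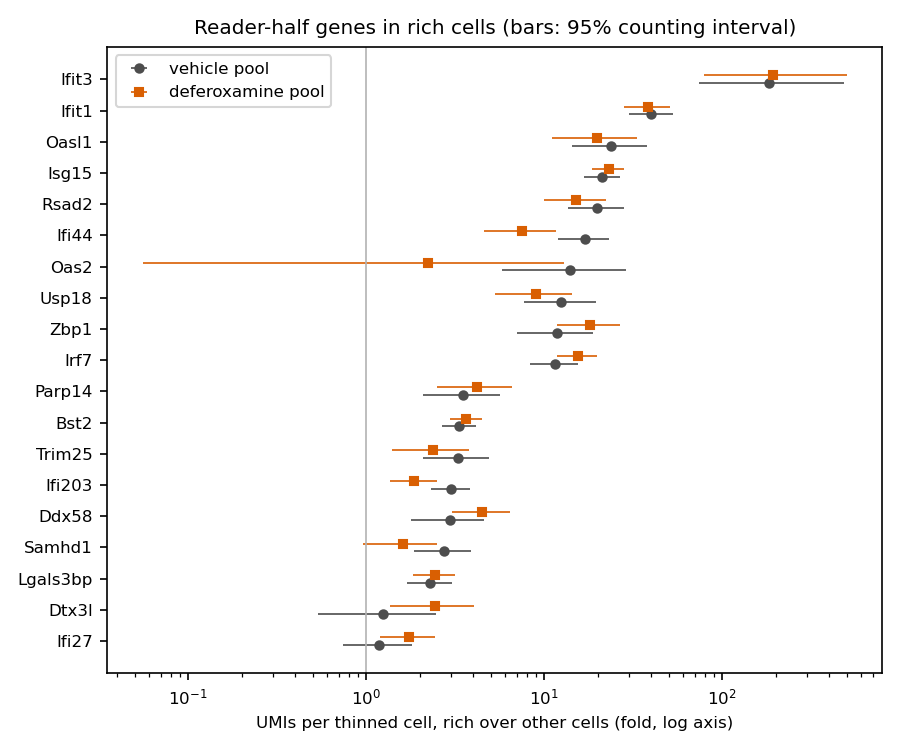
Fold of each of the 19 reader genes in rich over other cells, in UMIs per cell thinned to 5000, on a log axis with 95% counting intervals, by pool. Ifit3, with 9 UMIs in the other cells of each pool, stands at 183.7 and 193.3, and Ifi27 lies at 1.18 and 1.74.

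By gate, 28 of 2396 HSC-gate cells were rich (1.17%, 0.778 to 1.69%), 8 of 1054 in MPP1 (0.759%, 0.328 to 1.49%), 23 of 2698 in MPP4 (0.853%, 0.541 to 1.28%), 3 of 1068 in MPP3 (0.281%, 0.0580 to 0.819%) and 0 of 188 in MPP2, where the same interval reaches 1.94% and a limit of 3 counts is 1.60%. The intervals of the HSC gate and MPP3 overlap slightly. With so few cells, shares in MPP2 were not separable from those elsewhere.

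**Figure D5:**
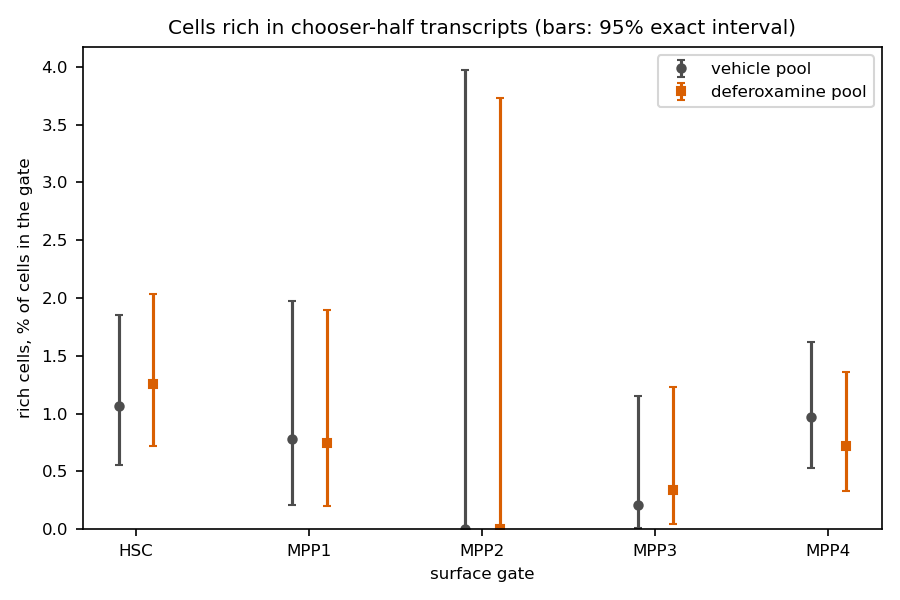
Share of cells rich in chooser-half transcripts in each gate (points) with exact 95% intervals, by pool. The HSC gate stands at 1.07% and 1.26% and MPP3 at 0.207% and 0.341%.

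Genes outside the list that stood out in the rich cells were picked by a fixed rule, as the 15 with the highest smaller of both pools' folds, so their folds are a description. They included the guanylate-binding proteins Gbp3, Gbp4, Gbp6 and Gbp9, the immunity-related GTPases Iigp1 and Tgtp1, Slfn5, Ddx60, Herc6, the MHC class I gene H2-T24, and Gm4951, Gm4841, Gm13822 and Gm20559. The same promoter search found the element in 4 of the 7 that have a window, Ddx60, Gbp3, Slfn5 and Tgtp1. Iigp1 stood at 7.22-fold and 9.90-fold, and Tgtp1 at 5.27-fold and 7.06-fold. The median of the 5276 eligible genes was 1.03 and 1.003. Of the pathway genes, Ube2l6, the enzyme that carries ISG15 to its targets, stood at 2.83-fold and 2.44-fold, and the receptor genes Ifnar1 and Ifnar2 had intervals that held 1 in both pools.

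At the surface, the Sca-1 tag (Ly-6A/E), itself the product of an interferon-inducible gene and a marker of the sort, was higher in rich cells by 0.48 and 0.51 on the centred log scale, and by 0.41 and 0.42 when each cell was set against others of its gate and pool. CD150, CD55, CD51 and CD38 were higher by 0.21 to 0.53. Within gates the differences were 0.18 and 0.045 for CD150, 0.25 and 0.15 for CD55, 0.19 and 0.16 for CD51 and 0.18 and 0.35 for CD38. Ly-49A, next in order, differed by 0.15 and 0.17. CD48, CD371 and CD62L were lower: CD48 differed by -0.41 and -0.71, CD371 by -0.39 and -0.62 and CD62L by -0.56 and -0.41. Within gates CD48 differed by -0.25 and -0.35, CD371 by -0.30 and -0.31 and CD62L by -0.44 and -0.014. The 9 isotype controls ranged from -0.14 to 0.17 in the vehicle pool, which takes in Ly-49A there, and reached 0.13 in the deferoxamine pool. Within gates the isotype controls reached 0.16 and 0.13, near several of the within-gate differences above. The marker lists of other cells were read in the same cells. Siglech and Cox6a2 of plasmacytoid dendritic cells and Csf1r and Ly6c2 of monocytes were at 0 in both pools. The summed plasmacytoid list of 5 markers gave 0.531 and 0.485 UMIs per rich cell against 0.689 and 0.671 in others, and the monocyte list of 7 gave 0.0625 and 0.0606 against 0.137 and 0.140. The T and NK cell list of 5 gave 0.875 and 0.333 against 0.897 and 0.858, with a UMI in 10 of 32 and 6 of 33 rich cells and with Cd3e and Cd3d at 0 in both pools. The neutrophil list gave 0 and 0.0606 per rich cell against 0.0344 and 0.0272 in others, and the B cell list 0 and 0.0303 against 0.0159 and 0.00627. In the deferoxamine pool both were thus higher in rich cells, on 2 UMIs and 1 UMI. The erythroid list gave 0 and 0.0606 against 1.06 and 0.247. The part of these cells in the result was not tested. The HSC list of 5 gave 6.84 and 6.88 against 4.62 and 4.64. The lymphoid-primed list of 4 gave 2.03 and 0.85 against 1.75 and 1.72. The granulocyte-monocyte-primed list of 4 gave 4.09 and 4.42 against 4.75 and 4.97, and the megakaryocyte-primed list of 4 gave 0.0625 and 0.364 against 0.726 in each pool. The HSC gate held 43.1% of rich cells and 31.2% of all thinned cells, and no list is given within gates here. The CD317 tag, which reads the protein of Bst2, averaged 2.46 and 2.61 UMIs per cell, where the highest isotype control averaged 2.20 and 2.62, so its mean lay near the top of the isotype range. By gate it was highest in the HSC gate, at 3.11 and 3.26, apart from 3.34 in the 92 vehicle MPP2 cells, and it had 1.99 and 2.104 in MPP4. These are raw tag counts, and isotype means by gate are not given here. The values therefore do not show a difference in the protein between gates.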

How the data were processed

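Per the labels' protocols, CITE-seq libraries were made with a 10x 5' kit from LSK cells of 2 hashtagged pools in 1 loading. The authors deposited 1 matrix of raw UMI counts per condition, not normalized. The mm10 build, Seurat 4.3.0 and Cell Ranger 7.0.0 are named, per the submitters' processing notes; per the file headers the Cell Ranger version was 7.0.1. The sources used here give no filter on barcodes. No column of other samples was present. Condition was taken from the matrix and its hashtag.

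Cells needed 500 genes and less than 10% mitochondrial UMIs (57 and 39 barcodes removed). No doublet caller was run; 35 vehicle and 52 deferoxamine cells had markers of both sexes, 0 of them among the rich cells. A cell was called Xist from 2 Xist UMIs without Y-linked UMIs, and Y from 1 Y-linked UMI without Xist. Gate thresholds came from 2-component mixtures fitted to each tag's centred log ratio. UMIs were summed per pool and gate and tested with edgeR 4.0.16 (R 4.3.3), TMM factors and filterByExpr, checked on simulated counts; DESeq2 1.42.0 was an alternative. Ratios between conditions carry exact conditional binomial intervals, levels exact Poisson and shares Clopper-Pearson intervals, all at 95%, for counting error only. Gene names came from the matrices and coordinates and promoters from RefSeq GRCm38.p6. All 38 members had coordinates there, and 29 had a promoter window. Full values were given for members with at least 500 UMIs (34); genes outside the list needed 200 UMIs and a UMI in 10% of rich cells in each pool. The members, the lists and the rules were chosen with earlier results of these data known. Other settings (27, and 7 chosen after seeing the data) are given in the closing section. A gene that the rules pick is not reported here.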

Additional observations from a re-analysis of the deposited data

Results flagged for a closer look

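The list median had opposite signs between treatments in cells of the 2 sexes, a difference that was not tested. The median log2 ratio of the members, deferoxamine over vehicle, was 0.126 in Xist cells and -0.0631 in Y cells (those with Y-linked transcripts). All genes gave 0.0002 and -0.013. With gates weighted equally, the members gave -0.024 in Y cells and all genes -0.0084, so the negative sign there lies near that of all genes. The summed level did not turn: it gave 0.0995 and 0.0059, and in MPP3 it was above 0 in both (0.17 and 0.08). For 4 members the counting intervals lay on opposite sides of 0. Ifit1 gave 0.46 and -0.28, Ifi44 0.53 and -0.19 and Oasl2 0.26 and -0.11, each higher in Xist cells, while Ifi27 gave -0.13 and 0.14. These intervals cover counting error only and leave out the spread over cells. For Ifit1, 10 cells held 23.0% of the UMIs of the vehicle pool and 10 held 20.2% in the deferoxamine pool. Ratios by sex without the cells richest in member UMIs are not given here. How many mice of each sex were pooled is not known here, so the sex of the cells and single animals cannot be told apart.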

How the results depend on the processing

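No paired analysis was possible because each condition is 1 pool. Among single members, 0 of 1290 gate ratios under the alternatives reversed a call, 46 lost it and 15 gained one; DESeq2 accounted for 19 of the losses. The 1290 take in 143 ratios without the vehicle pool and 143 without the deferoxamine pool. Those have 1 sum per gate and no test, so no call could be lost or gained there. With DESeq2, members higher in the HSC gate than in MPP1 numbered 4 in place of 8; with cells near a threshold left out, those lower than in MPP3 numbered 2 in place of 4. The other counts of called members stayed within 1.5 times. The list median between conditions, 0.03, was 0.13 in Xist cells (0.13 with gates weighted equally, an alternative chosen after seeing the data), -0.0631 in Y cells and 0.0555 when both sexes had equal weight. Members with a log2 ratio of at least 0.32 in size, whatever their interval, numbered 2 in all kept cells, 8 in Xist cells and 0 without the cells richest in member UMIs; in the HSC gate they numbered 2, 6 in Xist cells and 1 in Y cells. The share of rich cells, 0.840% and 0.855%, was by construction 0.420% and 0.389% for the 0.5% of cells and 1.57% and 1.45% for the 2%. The reader-half fold was 6.71 and 6.32 for the former, 3.71 and 3.925 for the latter, and 5.22 and 5.31 with chooser and reader genes exchanged. Depth limits the scarce members most: Ifit3, Ifit3b and Ifi204 rest on few cells.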
